A study of Mus musculus with 12 samples.

Results

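The genes described here rose late after a mutant oncogene was switched off in mouse lung tumors. They were higher at 48 h than with the oncogene on, and at 24 h they were little changed or, for a few, lower. Their probes were chosen by measured values. On the log2 scale restored from the authors' deposited table, the mean of the 48 h tumors had to exceed the on mean by at least 0.8, the 24 h mean had to lie less than 0.4 above it, and all 4 values at 48 h had to lie above all 4 on values. A probe also needed a detection p-value below 0.05 on at least 4 of 12 arrays. This rule was met by 177 of 45281 probes, out of 21232 that were detected. Without the limit at 24 h it was met by 517. Of the 177 probes, 145 were paired with 1 gene each, giving 131 of the 19057 genes on the array, and 32 had no gene name in the platform annotation.

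All mice were of the strain FVB/SV129, were 19 weeks old and carried lung tumors that had been microdissected and snap-frozen. The 4 tumors of the first group had the mutant oncogene on, and the other 2 groups of 4 were taken 24 h and 48 h after it was switched off. The labels do not say how it was switched, which cells expressed it, or whether each tumor came from a different mouse, so the p-values below measure the spread between these samples, which may be technical.

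Several of these genes belong to well-known programs. The circadian clock is a loop in which the Period and Cryptochrome proteins repress the activators Clock and Bmal, which bind E-box sequences, and the nuclear receptors Nr1d1 and Nr1d2 repress the Bmal gene in turn. Heat shock proteins are chaperones that bind unfolded proteins. Motile cilia are built on dynein-driven microtubule axonemes and clear mucus from the airways, where multiciliated cells carry them. The epithelial sodium channel draws fluid out of the airspaces.

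Between 42.5% and 46.2% of probes were detected on each array. As a check of the tissue label, probes of all 13 marker genes of alveolar type 2 cells were detected, and Sftpc, the surfactant protein that defines the type, stood near the top of the scale in every group, at 14.1 ± 0.16 with the oncogene on and 14.3 ± 0.13 at 48 h (log2, SD, n = 4). The 13 markers were not all level. At 48 h 6 were called lower than on (limma adjusted p below 0.05) and 0 higher, with a median change of -0.35. Of all genes tested, 11.1% were called lower. The arrays lay on 2 BeadChips. Chip 1 held the 4 on tumors and 48 h replicates 1 and 2, and chip 2 held 48 h replicates 3 and 4 and the 4 tumors at 24 h. The 48 h replicate 3 stood apart from the other tumors of its group. Its level of Cxcl15, a chemokine of the alveolar epithelium, was 14.3 against 12.5 to 12.6 in the other 48 h tumors and 14.4 to 14.8 in the on tumors. Without it, 378 probes met the rule, and 157 of them were among the 177.

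Taken over all 177 probes, each 48 h tumor stood above the on level and no 24 h tumor did so by much. The median change from a probe's own on mean was 0.92, 1.07, 0.73 and 0.95 in 48 h replicates 1 to 4 (normalized log2 scale, as in all that follows). In the 24 h tumors the same median lay between 0.05 and 0.15, and in the on tumors between -0.09 and 0.07. The 48 h replicate 3 was the lowest of its group for 95 of the 177 probes and replicate 2 the highest for 79. In bulk tumor RNA, more cells of a type and more RNA per cell cannot be told apart, here and in all that follows.

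**Figure D1:**
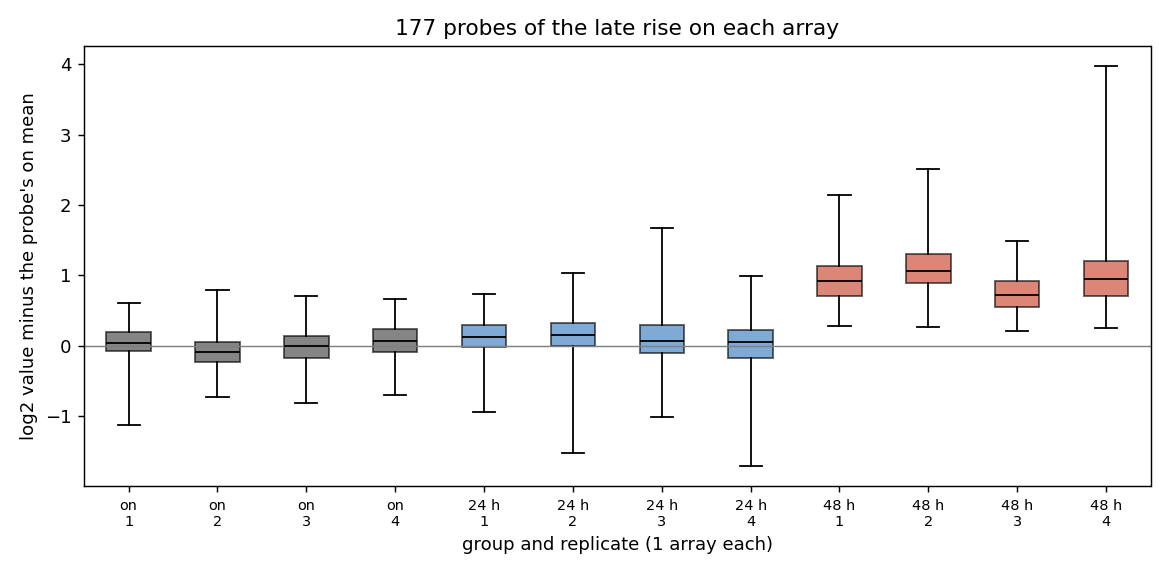
Log2 value minus the probe's own on mean (vertical axis) for the 177 probes on each of the 12 arrays (horizontal axis, group and replicate). Boxes span the quartiles, the line is the median and the whiskers reach the lowest and highest probe; medians are 0.73 to 1.07 at 48 h and at most 0.15 at 24 h.

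The difference between 48 h and on had chosen these probes and is given as a description. It ranged from 0.47 to 1.88, with a median of 0.91 and a median standard error of 0.17, where all detected probes had a median of -0.01. A limma model fitted to all detected probes called 170 of the 177 higher at an adjusted p below 0.05. The same model called 9.66% of all detected probes higher, 11% lower and 20.7% in either direction, and 10.6% had all 4 values at 48 h above all 4 on values. The limits of the rule also fixed the direction of the difference between 48 h and 24 h on the restored scale. The values and counts for it are therefore a description too. Between 48 h and 24 h the 177 probes differed by 0.37 to 1.99, with a median of 0.83. Here 160 were called higher, against a background of 12.9% higher, 13.8% lower and 26.7% in either direction. With the chip as a term of the model this count was 70 and the median difference 0.71. All 4 values at 48 h lay above all 4 at 24 h for 149 of the probes, and 13.2% of all detected probes did the same.

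The rule had also capped the change at 24 h, so the counts there are a description. The median change from on was 0.11 and the range -0.81 to 0.40. The model called 6 of the 177 probes higher and 5 lower than on, where it called 11.5% of all detected probes higher, 12.2% lower and 23.7% either way. The 6 were 2 probes of Slco3a1 and 1 each of Acss1, Inpp5k, Magi1 and Lgals4, with changes of 0.34 to 0.39. With the chip as a term the model called 0 of the 177, and 132 of all detected probes. The on and 24 h tumors lay on different chips. With that term the median change of the 177 at 24 h was 0.26, and 140 were above 0, against 123 without it. The calls thus fell although the median change did not. In the model without the term, the count of all 11 fell to between 3 and 6 without on replicate 2, on replicate 3, or 24 h replicate 1, 2 or 3. All 4 values at 24 h lay above all 4 on values for 8 of the probes, against 12.6% of all detected probes, and below them for 3, against 14.8%.

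The thresholds cut through a continuous range. Just inside the limit of 0.8 lay Swt1, Slc25a18 and the probe ILMN_1243921, all at the limit itself on the restored scale, and just outside it lay Stk36 at 0.797, with Fosl2 and P2rx5 at 0.795. Just inside the limit of 0.4 at 24 h lay Slco3a1 and Nr1d2 at 0.395 and Lgals4 at 0.393. Just outside it lay Morn1, at the limit itself, and Per3 and Cbr2 at 0.403. Cbr2, a carbonyl reductase of club cells, would otherwise have been among the largest rises, at 1.81 on that scale at 48 h.

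The comparison of the chips at 48 h was not used by the rule. It set 48 h replicates 3 and 4, on chip 2, against replicates 1 and 2, on chip 1. The model called 0 of the 177 probes, and 2 of all detected probes, at an adjusted p below 0.05 (0.00942%). At an unadjusted p below 0.05, 13 of the 177 were lower on chip 2 and 0 higher, where 4.15% of all detected probes were lower, 3.8% higher and 7.95% either way. By sign, 132 were lower on chip 2 and 45 higher, with a median of -0.17 against -0.01 for all detected probes. Aoc3, with the lowest difference of all, -0.80, Sphk1, Scnn1a and 1 of the Nos3 probes were among the 13. Chip 2 held replicate 3, the lowest 48 h tumor, and the part of that tumor and of the chip in this shift cannot be told apart. The differences within a chip are given as a description, since the values that chose the probes also fix their direction or favour it. Within chip 1, the difference between 48 h and on had a median of 0.99 and a lowest value of 0.49. Within chip 2, the difference between 48 h and 24 h had a median of 0.71 and a lowest value of 0.22.

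**Figure D2:**
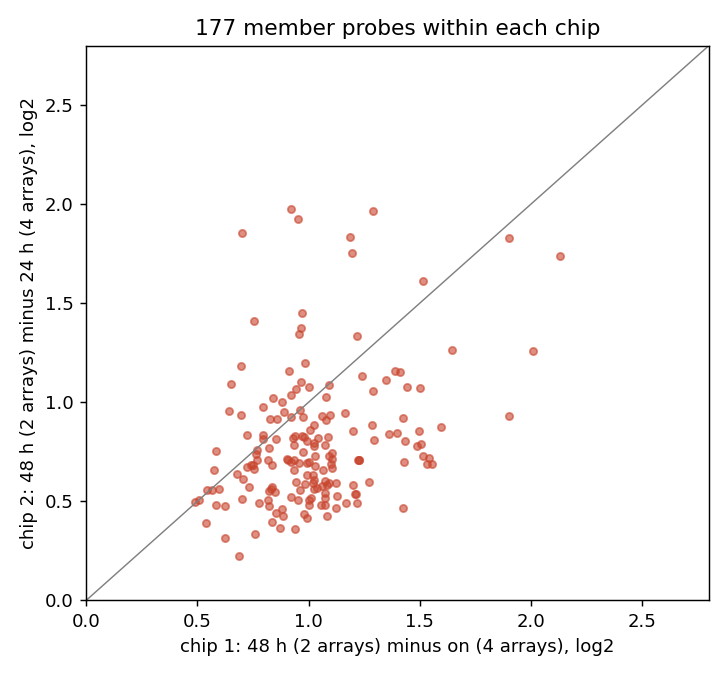
Each of the 177 probes by its log2 difference between 48 h (2 arrays) and on (4 arrays) within chip 1 (horizontal axis) and between 48 h (2 arrays) and 24 h (4 arrays) within chip 2 (vertical axis). The choice of the probes fixed positions above 0 on the horizontal axis and favoured them on the vertical axis; the medians are 0.99 and 0.71, and the grey line marks equal values.

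The tumors at 48 h did not rank alike for all of these probes. Replicates 2 and 4 were the highest 2 for 66 of the 177 (37.3%, against 13.1% of all detected probes), and replicates 1 and 2, both on chip 1, for 54 (30.5%, against 21%). Replicates 3 and 4, both on chip 2, were the highest 2 for 7 (3.95%, against 18.4%), and replicates 1 and 3 for 16 (9.04%, against 22.8%). The members were sorted into 12 roles, which cover 81 of the 131 genes and were drawn up after the values were seen. Replicates 2 and 4 were the highest 2 for all 5 heat shock and all 7 cilium probes, for 4 of 6 clock probes, 3 of 4 of stress and damage and 3 of 5 immune probes, and for 4 of the 19 of transcription and signalling.

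**Figure D3:**
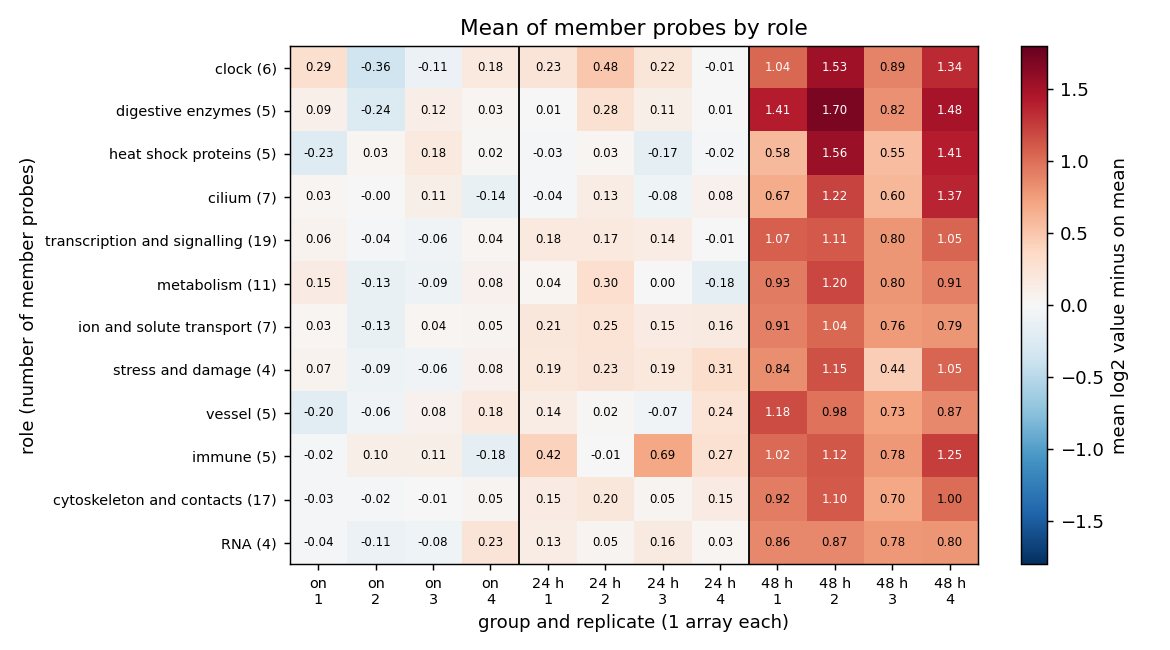
Mean log2 value minus the on mean for the member probes of each role (rows, with the number of probes) on each array (columns, group and replicate). The choice of probes fixed the high level at 48 h, where the lowest mean is 0.44; heat shock proteins and cilium genes reach 1.22 to 1.56 in replicates 2 and 4 against 0.55 to 0.67 in replicates 1 and 3.

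Clock genes of the repressing arm were in the set. Both probes of Per1, a Period gene that light and hormones also induce, met the rule. The brighter stood at 9.96, 9.12, 9.50 and 9.75 in the on tumors, at 9.83, 10.28, 9.89 and 9.80 at 24 h and at 10.93, 11.34, 10.28 and 10.99 at 48 h. The values at 48 h were above all on values, and the lowest of them, in replicate 3, met the highest at 24 h. The difference from on was 1.30 ± 0.22 (SE), a 2.47-fold rise, and it was 1.31 ± 0.23 by the other probe. Cry2, a Cryptochrome, read 7.74, 7.31, 7.63 and 7.81 with the oncogene on, 7.91, 7.83, 7.71 and 7.75 at 24 h and 8.50, 8.93, 8.17 and 8.88 at 48 h. Here the 48 h tumors were above both other groups, by 1.00 ± 0.16 over on and 0.82 ± 0.16 over 24 h. Nr1d2 was at 9.09, 8.47, 8.74 and 8.79 with the oncogene on, at 9.19, 9.45, 9.30 and 8.74 at 24 h and at 9.48, 9.47, 9.85 and 9.72 at 48 h. Its 24 h values spanned the gap between the other groups, and its 48 h change over on was 0.86 ± 0.17.

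A pair of genes that the clock is known to drive had the same shape. Usp2, a deubiquitinating enzyme with a strong daily rhythm in mouse tissues, was among the largest rises. Its values were 6.86, 6.11, 6.94 and 7.47 in the on tumors, 6.64, 7.19, 6.77 and 6.46 at 24 h and 8.14, 9.36, 8.29 and 8.90 at 48 h. The 48 h tumors lay clear of both other groups, which overlapped fully, at 3.55-fold the on level. Klf15, a transcription factor of fasting metabolism that glucocorticoids induce, was at 5.49, 5.07, 4.52 and 5.03 with the oncogene on, at 5.32, 5.18, 5.19 and 5.09 at 24 h and at 5.68, 6.18, 5.75 and 6.06 at 48 h. Its rise was 0.89 ± 0.18, again with no overlap at 48 h.

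A list of 17 clock genes held 12 with a detected probe, of which Per1, Cry2 and Nr1d2 had been chosen for their rise. Of the other 9, 4 were called higher at 48 h than on and 1 lower, with a median of 0.53. Over all 11398 genes tested, 1 probe each, 11.4% were called higher and 11.1% lower, with a median of 0.01. The 4 genes that rose were Per3 by 1.09 (limma adjusted p = 0.013), Tef by 0.96 (0.000549), Nr1d1 by 0.84 (0.0255) and Dbp by 0.77 (0.0149). Tef and Dbp are output factors of the clock. Tef was also called higher at 24 h, by 0.59 (limma adjusted p = 0.00738), above the limit of the rule. Per2 went the other way at 24 h, where it fell by 0.77 (limma adjusted p = 0.0191), and was back at 10.9 ± 0.15 at 48 h against 10.7 ± 0.53 with the oncogene on (SD, n = 4). Bhlhe40, a repressor, fell by 0.79 at 48 h (limma adjusted p = 0.00854). The activators did not pass: Clock changed by -0.17 (limma adjusted p = 0.295) and Arntl, the gene of Bmal, by 0.22 (0.477). Other lists also rose. Klf15 is on that of FoxO targets, where 7 of the other 14 detected genes were called higher at 48 h than on and 0 lower. The list of glucocorticoid response held 10 genes and no member. Of these, 6 were called higher at 48 h than on and 0 lower, and 6 were called higher at 24 h. Whether these lists moved with the clock genes was not tested.

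**Figure D4:**
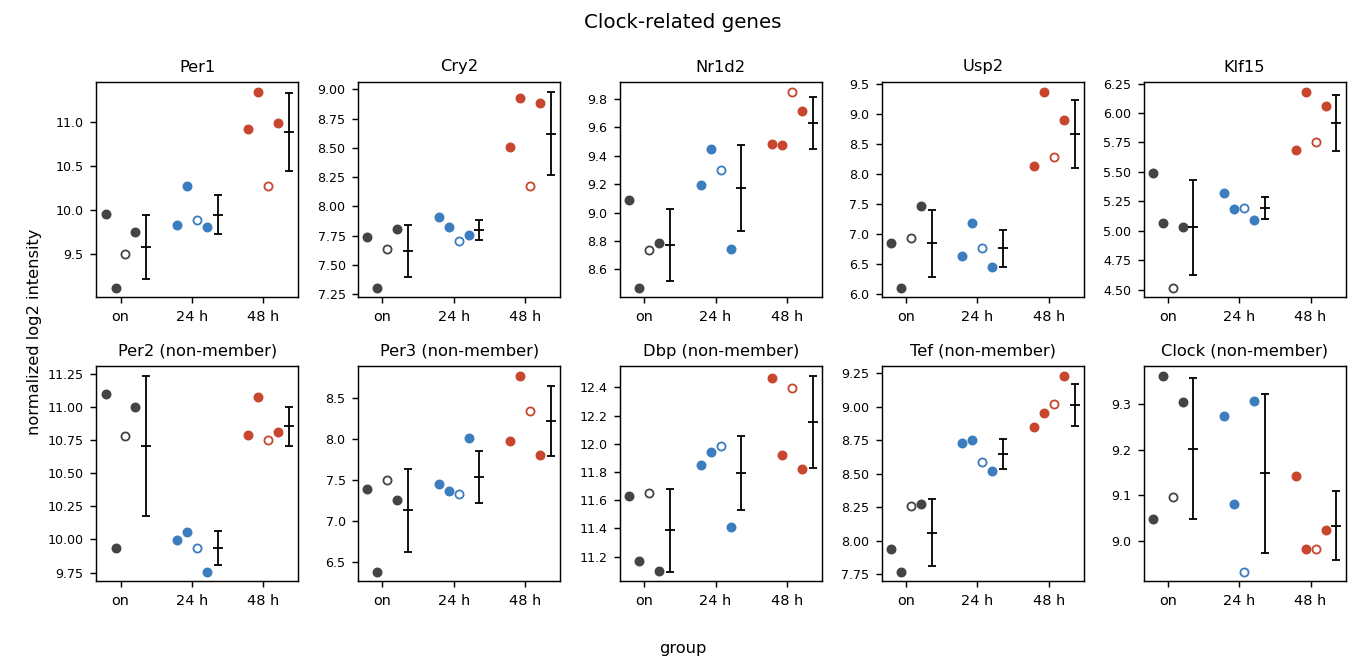
Normalized log2 intensity of 5 members (upper row) and 5 non-members (lower row) by group; points are arrays, the open point in each group is replicate 3, and bars give the mean ± SD (n = 4). Usp2 and Cry2 are high at 48 h alone, Tef climbs through 24 h, and Per2 dips at 24 h.

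The E-box is shown because it is the site through which Clock and Bmal are known to act. In the RefSeq promoters of build GRCm38.p6, which run from 250 bases before to 50 bases after a gene's start, 107 of the 131 genes had 152 promoters. The letters CACGTG, which read the same on both strands, were in 12.5% of these, in 7.15% of all 32851 promoters and in 9.67% of the 11757 promoters of genes tested here. Of the clock genes in the set only Per1 and Klf15 had a match, and Cry2, Nr1d2 and Usp2 had none in this window. The lines below give 90 bases upstream of the start of 4 genes, 5′ to 3′ on the gene's strand, with each CACGTG in capitals. Per1 lies at chr11:69098749-69098838 (plus strand) with a match 166 bases before the start, Klf15 at chr6:90462326-90462415 (plus strand) with matches 228 and 172 bases before it, Lpin2 at chr17:71183442-71183531 (plus strand) with a match 9 bases before it, and Pfkfb2 at chr1:130715822-130715911 (minus strand) with a match 22 bases before it.
Per1: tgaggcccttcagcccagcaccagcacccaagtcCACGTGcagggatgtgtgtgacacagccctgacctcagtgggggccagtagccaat
Klf15: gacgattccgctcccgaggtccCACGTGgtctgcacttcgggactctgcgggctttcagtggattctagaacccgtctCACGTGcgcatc
Lpin2: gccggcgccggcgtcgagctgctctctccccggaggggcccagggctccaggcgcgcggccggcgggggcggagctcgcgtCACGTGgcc
Pfkfb2: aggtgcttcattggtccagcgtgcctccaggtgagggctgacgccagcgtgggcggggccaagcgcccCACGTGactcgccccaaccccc
A match is a description of the letters and not evidence of binding. Of the other motifs searched on both strands, the GC box GGGCGG was in 53.9% of the 152 promoters and in 60.2% of those of tested genes, CCAAT in 37.5% and 36.7%, TGANTCA in 8.55% and 5.6%, TATAAA in 8.55% and 7.78%, and the heat shock element TTCNNNGAA in 5.92% and 7.05%. The letters TGACGTCA, the interferon-stimulated response element and the letters TGTTTAC were in 1.32%, 2.63% and 2.63% of the 152, and in 2.87%, 2.96% and 2.75% of those of tested genes. Over all 32851 promoters the shares of these 8 motifs were 35.7%, 37.4%, 7.81%, 13.6%, 8.3%, 1.79%, 3.44% and 3.65% in the same order.

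Digestive enzymes held the largest rise of any named probe in the set. Amy2a5, a pancreatic alpha-amylase gene, was at 6.19, 6.01, 6.38 and 6.58 in the on tumors, at 5.93, 6.49, 6.28 and 6.05 at 24 h and at 8.44, 8.40, 7.40 and 8.45 at 48 h. The on and 24 h tumors could not be separated, 3 of the 48 h tumors agreed within 0.05, and replicate 3 lay about 1 log2 unit below them. The difference from on was 1.88 ± 0.23 (SE), or 3.69-fold, and within chip 1 alone it was 2.13. Amy1, the salivary and liver amylase, rose by 1.36 ± 0.18 and 1.30 ± 0.19 by its 2 probes, and its 48 h replicate 3 was again the lowest of its group by both. The amylase genes are near-identical copies, so a probe of 1 may also read the others. Pnliprp1, a pancreatic lipase-related protein, was higher by 1.25 ± 0.23, and Pdia2, a protein disulfide isomerase made mainly in the pancreas, by 0.97 ± 0.17. Of a list of 16 further pancreatic acinar genes, drawn up after the data were seen, 13 had no detected probe, and the other 3 had a median change of -0.03 at 48 h. Their summed level ran from 712.2 to 1020 with the oncogene on, from 151.9 to 673.5 at 24 h and from 244.2 to 363.3 at 48 h (linear scale), and Cela1, an elastase, fell by 1.69 (limma adjusted p = 0.00738). The part of such cells in the rise of the amylases was not tested. The promoter of Amy2a5 holds the letters TATAAA of a TATA box 30 bases before the start, shown in capitals within 90 bases of chr3:113258700-113258789 on the minus strand.
Amy2a5: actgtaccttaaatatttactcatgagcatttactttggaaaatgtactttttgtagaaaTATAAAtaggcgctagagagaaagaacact

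Heat shock genes rose unequally among the 48 h tumors. Hspa1b, an inducible Hsp70 gene, had 1 probe in the set, which was detected on no array of the on group. The values of this probe there were 4.45, 4.68, 4.46 and 4.33, those at 24 h were 4.48, 4.31, 4.38 and 4.61, and those at 48 h were 4.93, 6.81, 4.93 and 6.28. Replicates 2 and 4 were far above replicates 1 and 3, which were only just above the floor. Against the lowest signal that was detected the rise was at least 1.90-fold, and without 48 h replicate 4 or on replicate 3 the model no longer called it (limma adjusted p = 0.0639 and 0.0507, against 0.0231 with all arrays). A brighter Hspa1b probe outside the set differed by 0.75 and was not called (limma adjusted p = 0.131). Dnajb1, the Hsp40 partner of Hsp70, was a bright probe at 10.29, 10.71, 10.54 and 10.40 in the on tumors, at 10.50, 10.19, 10.25 and 10.19 at 24 h and at 10.80, 12.11, 11.31 and 12.001 at 48 h. The order of the 48 h tumors was that of Hspa1b, with replicate 1 close to the on tumors, and the mean difference from on was 1.07 ± 0.24. Hspa1a, a near-identical copy of Hspa1b whose probes may read both, was higher by 0.83 ± 0.18. Hspa2, a related chaperone best known from the testis, was 2.14-fold and 1.84-fold higher by its 2 probes. In all 5 of these probes replicates 2 and 4 were the highest.

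On the list of 12 heat shock genes, all had a detected probe, the brightest standing for each gene, and that of Dnajb1 had been chosen for its rise. Of the other 11, 3 were called higher at 48 h than on, with a median of 0.37, and 5 higher than at 24 h. Of all genes tested, 11.4% were called higher than on and 13% higher than at 24 h. The brightest probe of Hspa1a did not meet the rule because its groups overlapped. It rose by 2.298 over on (limma adjusted p = 0.0206) and by 2.73 over 24 h (0.00776). Hspb1 rose by 0.76 (limma adjusted p = 0.0464), Cryab by 0.51 (0.0421), and Hsph1 rose over 24 h by 1.21 (0.0336). The constitutive Hspa8 stood at 13.4 with the oncogene on and 13.5 at 48 h.

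The genes grouped here as cilium genes, after their values were seen, had the same 2 high tumors. Enkur, whose product enkurin lies in cilia and sperm tails, was at 4.75, 4.76, 4.99 and 4.66 with the oncogene on, at 5.12, 5.33, 4.71 and 4.97 at 24 h and at 5.84, 6.63, 5.46 and 6.76 at 48 h. The groups did not overlap at 48 h, and replicates 2 and 4 were about 1 log2 unit above replicates 1 and 3. Fbxl13, a part of the regulatory complex between axonemal dyneins, was not detected in the on tumors and was at least 1.65-fold higher at 48 h. Casc1, which is linked to axonemal dynein, was higher than on by 1.03 ± 0.19 and 0.70 ± 0.16 by its 2 probes. Mapk15, a kinase needed for cilium formation, was higher by 1.04 ± 0.21, Saxo2, an axonemal microtubule protein, by 0.83 ± 0.21 and Rpgr, a protein of the cilium base, by 0.73 ± 0.13. In all 7 of these probes replicates 2 and 4 were again the highest 2.

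**Figure D5:**
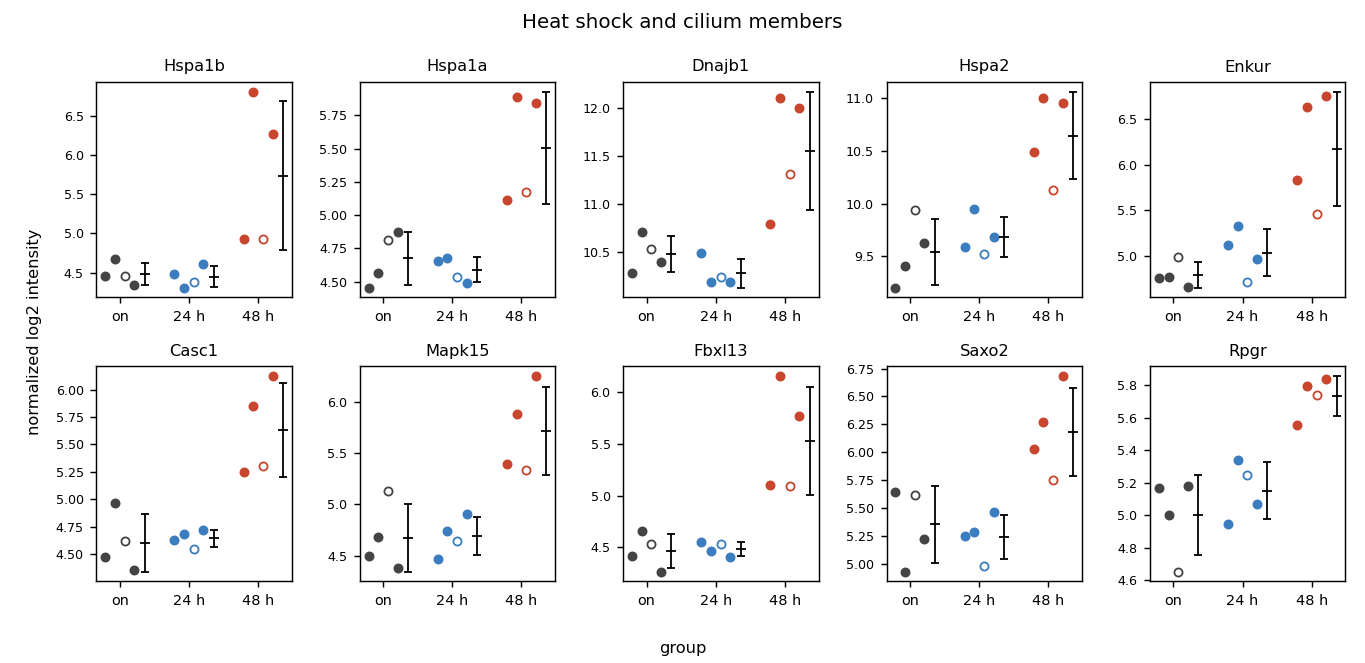
Normalized log2 intensity of 4 heat shock members (first 4 panels) and 6 cilium members by group; points are arrays, in the order of replicates 1 to 4 within each group, the open point is replicate 3, and bars give the mean ± SD (n = 4). At 48 h the points of replicates 2 and 4 stand above those of replicates 1 and 3 in each panel.

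Markers of ciliated airway cells moved beside these genes. Of 13 such markers 10 had a detected probe, and at 48 h 2 were called higher than on, with a median of 1.04, and 5 higher than at 24 h, where 11.4% and 13% of all genes tested were. Their mean change from the on level was 0.74, 1.59, 0.07 and 1.70 in 48 h replicates 1 to 4, between -0.52 and 0.26 at 24 h, and between -0.53 and 0.50 with the oncogene on. Their summed level ran from 3417 to 4833 with the oncogene on, from 4754 to 7962 at 24 h and from 6467 to 14660 at 48 h (linear scale). Foxj1, the master regulator of motile cilia, was detected but dim, at 5.4 with the oncogene on and 5.5 at 48 h, and Tekt1, an axonemal tektin, went from 6.0 to 7.3 (limma adjusted p = 0.0627). In 12 further axonemal genes of a list drawn up after the data were seen, 4 were called higher than on and 1 lower. Club cell markers, also of the airway, had a mean change of 0.93, 1.96, -0.03 and 1.01 in the same 4 tumors. Striated muscle markers, of which 10 were detected, had a mean change of -0.26, 2.31, -1.47 and 2.09 there and of -1.53, -1.64, 1.08 and 2.09 in the on tumors, and their summed level ran from 743.6 to 9424 with the oncogene on and from 850.2 to 13400 at 48 h. Replicates 2 and 4 were thus also those with the most RNA of airway and muscle markers at 48 h. The part of airway or muscle tissue in the cilium and heat shock genes was not tested.

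Regulators of transcription and signalling made up the largest role, with 18 genes and 19 probes. Rarb, a retinoic acid receptor that retinoic acid itself induces, was at 5.70, 5.73, 5.75 and 5.34 in the on tumors, at 5.97, 6.15, 6.10 and 5.58 at 24 h and at 7.30, 7.25, 6.90 and 7.52 at 48 h. All 4 tumors at 48 h were well above the 8 others, by 1.61 ± 0.16 over on and 1.29 ± 0.16 over 24 h, and another Rarb probe that did not meet the rule differed by 1.53. Ppargc1a, a coactivator that drives mitochondrial genes, was at 6.11, 5.49, 5.78 and 5.72, then at 5.75, 5.92, 5.83 and 5.43 at 24 h and at 6.93, 7.11, 6.69 and 7.03 at 48 h. The on and 24 h tumors were alike and the rise was 1.16 ± 0.15. On the list of fatty acid oxidation, 13 genes besides Ppargc1a were detected, and 2 were called higher and 1 lower at 48 h than on. Bmpr1b, a type I receptor for bone morphogenetic proteins, was higher by 1.27 ± 0.24 and 0.93 ± 0.21 by its 2 probes.

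Genes that hormones or cAMP switch on quickly were among them. Nr4a2, an orphan nuclear receptor, was at 5.28, 5.06, 4.55 and 4.86 with the oncogene on, at 5.06, 4.78, 4.90 and 4.71 at 24 h and at 6.10, 5.602, 5.98 and 6.06 at 48 h. Sik1, a kinase that restrains cAMP signalling, was higher by 1.01 ± 0.18, Pde4c, which degrades cAMP, by 1.26 ± 0.16, and Pde7a, another such enzyme, by 0.93 ± 0.20. Jun, a subunit of AP-1, was higher by 0.84 ± 0.20, though its values at 48 h, from 7.47 to 8.55, overlapped those at 24 h, from 7.25 to 7.79. Sphk1, which makes sphingosine phosphate, was 2.15-fold higher. Among the genes of growth signalling were Lrig1, which dampens receptors of the EGF family (0.96 ± 0.17), Igfbp3, which binds insulin-like growth factors (0.81 ± 0.16, but 0.19 ± 0.21 and not called by another probe), Mknk2, a kinase of the translation factor eIF4E (0.91 ± 0.11), and Inpp5k, a phosphoinositide phosphatase (0.94 ± 0.10). Dapk2, a kinase of cell death, had 1 low value of 8.31 at 24 h against 10.0 to 10.1 in the other 3 tumors and was 1 of the 7 probes not called against on.

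Metabolic enzymes included the brightest named gene of this kind. Alas1, the rate-limiting enzyme of heme synthesis, was at 12.47, 12.29, 12.53 and 12.48 in the on tumors, at 12.74, 12.71, 12.93 and 12.76 at 24 h and at 13.72, 13.96, 13.23 and 14.02 at 48 h. The values of the 3 groups did not overlap. The difference from on was 1.29 ± 0.15 at 48 h, and at 24 h it was 0.34 ± 0.15 and not called (limma adjusted p = 0.119). Lpin2, a phosphatidate phosphatase of lipid synthesis, read 8.63, 7.80, 7.62 and 8.22, then 7.59, 7.95, 7.32 and 7.56 at 24 h and 9.15, 9.43, 8.88 and 9.0 at 48 h by its dimmer probe. The 24 h values tended to the low side of the on values, and the difference between 48 h and 24 h, 1.51 ± 0.21, was larger than that between 48 h and on, 1.04 ± 0.21. Its brighter probe gave 0.95 ± 0.12 and 0.90 ± 0.12 for the same differences. Acss1, which makes acetyl-CoA from acetate in mitochondria, was higher than on by 1.04 ± 0.12, Pfkfb2, a regulator of glycolysis, by 0.94 ± 0.15, and Aldh3a2, a fatty aldehyde dehydrogenase, by 0.69 ± 0.18. The Aldh3a2 probe was dim, and 3 brighter probes of that gene differed by 0.24, 0.25 and 0.26 and were not called.

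Of the epithelial sodium channel, 2 subunits and a regulator were present. Scnn1a, the alpha subunit, stood at 10.44, 10.30, 10.46 and 10.70 with the oncogene on, at 10.40, 10.71, 10.38 and 10.58 at 24 h and at 11.77, 11.91, 11.36 and 11.35 at 48 h. The on and 24 h tumors were level, and all 48 h tumors were higher, by 1.12 ± 0.14 over on. Replicates 3 and 4, on chip 2, were lower than replicates 1 and 2 by 0.48 on the log2 scale (limma adjusted p = 0.57). Scnn1b, the beta subunit, was higher by 0.90 ± 0.21, and Nedd4l, the ubiquitin ligase that removes the channel from the membrane, by 0.70 ± 0.13. Slco3a1, an organic anion transporter, was higher by 1.09 ± 0.10 and 1.00 ± 0.11 by its 2 probes. Both of these were also among the 6 called higher at 24 h, by 0.38 and 0.35.

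Genes of protein and DNA stress were fewer and did not stand for their lists. Herpud1, which aids the removal of misfolded proteins from the endoplasmic reticulum, was bright, at 12.88, 12.41, 12.45 and 13.06 with the oncogene on, at 12.77, 13.16, 13.15 and 13.08 at 24 h and at 13.70, 14.14, 13.19 and 13.87 at 48 h. Its 48 h replicate 3 was within 0.03 of the highest 24 h tumor, and the rise over on was 1.03 ± 0.20. Of the other 15 genes on the list for stress of the endoplasmic reticulum, 4 were called lower at 48 h, among them Calr, a lumenal chaperone, by -1.26 (limma adjusted p = 0.00269) and Xbp1 by -0.71 (0.000246). Sesn2 and Trp53inp1, both p53 targets, were each higher by 0.82, with standard errors of 0.16 and 0.17. Of the other 10 detected p53 targets 1 was called higher and 1 lower, with a median of -0.17.

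Vessel, immune and adhesion genes completed the named groups. Nos3, the endothelial nitric oxide synthase, was at 6.98, 7.10, 7.26 and 7.21 in the on tumors, at 7.27, 6.93, 7.15 and 7.19 at 24 h and at 8.27, 8.14, 7.75 and 7.84 at 48 h. The groups on and 24 h coincided, and the rise at 48 h was 0.86 ± 0.13 by this probe and 0.86 ± 0.14 by the other. Mcam, an adhesion molecule of endothelium and pericytes, was higher by 1.03 ± 0.16 and 0.92 ± 0.16, and Aoc3, a vascular amine oxidase, by 1.04 ± 0.25. The 48 h values of Aoc3 were 7.548 and 6.825 on chip 1 and 6.157 and 6.625 on chip 2. Of the 14 detected endothelial markers, 9 were called higher at 48 h than on, with a median of 0.67, against 11.4% of all genes tested. At 24 h 12 were already called higher than on, and from 24 h to 48 h 7 were called lower, and their summed level ran from 9037 to 11070 with the oncogene on, from 14060 to 19330 at 24 h and from 13450 to 13920 at 48 h. Whether Nos3 differed from them was not tested.

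Among immune genes, Vpreb3, a protein of B cell precursors, was at 6.58, 6.77, 7.21 and 6.22 with the oncogene on, at 6.94, 6.69, 7.47 and 7.23 at 24 h and at 8.54, 8.87, 7.96 and 8.72 at 48 h. The 48 h tumors were clear of the others, at 3.55-fold the on level, while the 6 detected B and plasma cell markers had a median change of 0.24. Cd86, a ligand through which antigen-presenting cells stimulate T cells, was higher by 0.85 ± 0.23 and 0.82 ± 0.22 by its 2 probes, with 24 h replicate 3 among the 48 h values by both. Neither call held with the chip as a term, without the filter on dim probes, or without on replicate 1, on replicate 4 or 48 h replicate 4. Lgals4, a galectin of epithelia, was higher by 0.81 ± 0.12. Genes of the cytoskeleton and of cell contacts numbered 14, with a median rise of 0.91. They included Map1b, a microtubule protein (1.05 ± 0.22 and 0.91 ± 0.22), Magi1, a scaffold of tight junctions (0.88 ± 0.11 and 0.81 ± 0.12), Tnxb, a matrix glycoprotein (0.99 ± 0.20 and 0.94 ± 0.20), Fscn1 and Espn, which bundle actin (0.82 ± 0.14 and 0.96 ± 0.11), and Tuba8, an alpha-tubulin (1.37 ± 0.23). Ago4 and Tnrc6b, both of the microRNA silencing complex, were higher by 0.90 ± 0.12 and 0.89 ± 0.15, and Ybx2, an RNA-binding protein of germ cells, by 0.95 ± 0.12 by the brighter of its 2 probes.

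Some probes fell before they rose. Calcoco1, an autophagy receptor, was at 8.04, 8.14, 8.10 and 8.10 in the on tumors, at 7.49, 7.29, 7.62 and 7.22 at 24 h and at 9.06, 9.07, 8.68 and 9.04 at 48 h. The 3 groups did not overlap in any pair, with 24 h lowest and 48 h highest. The others called lower at 24 h were ND4L, a subunit of respiratory complex I encoded by mitochondrial DNA, with -0.70 at 24 h and 1.12 at 48 h, Pisd-ps2 with -0.70 and 0.93, BC039771 with -0.57 and 1.28, and the unnamed probe ILMN_2419660 with -0.81 and 1.03. They were singled out after their values were seen, and with the chip as a term none of these 5 was called at 24 h.

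The remaining 50 genes, with 1 probe each, were higher at 48 h than on by 0.50 to 1.28, and 48 of them were called. The rule had chosen all 177 probes on this difference, so such counts are a description. Of all detected probes, 9.66% were called higher. The 32 probes with no gene name were higher by 0.50 to 1.75, and 29 were called. They include the largest rise on the restored scale, at ILMN_2489305, with 4.69, 5.11, 5.12 and 4.49 in the on tumors and 5.69, 6.60, 5.30 and 8.83 at 48 h. This rests largely on replicate 4, and the probe was not called against on (limma adjusted p = 0.0518). At 15 of the 177 probes no on tumor gave a detected signal, so that the size of the rise has only a lower bound, between 1.12-fold and 1.90-fold.

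Other probes for the same genes give a view of how far the rise at 48 h belongs to the gene. Beyond the 145 probes, 57 of the 131 genes had 73 further detected probes that did not meet the rule. They differed between 48 h and on by a median of 0.48, 66 were above 0 and 34 were called higher (46.6%, against 9.66% of all detected probes). Mpp3 and Rarb had such probes at 1.66 and 1.53, while Tuba8 had 1 at 1.40 and another at 0.04. Not all of these rises were late. The probes of Mpp3, Trp53inp1 and Osbpl6 were already called higher than on at 24 h, by 0.77, 0.78 and 0.63 (limma adjusted p = 0.0139, 0.00931 and 0.00619). So were further probes of Slco3a1, Mcam, Inpp5k, Pitpnm3, Pdlim2 and Hs2st1, by 0.38 to 0.68 (limma adjusted p below 0.05). Other probes, of Inpp5k, Ubtf, Tnrc6b and Dnase2a, were called lower at 24 h, by -0.67, -0.65, -0.63 and -0.496 (limma adjusted p = 0.0199, 0.00776, 0.00549 and 0.00732). The probes of Inpp5k were thus called in both directions at 24 h. At 48 h Map1b was the 1 gene with a probe called lower than on, by -0.72 (limma adjusted p = 0.013), while its 2 other probes had met the rule. Besides those of Aldh3a2, Igfbp3 and Hspa1b, further probes of Cry2, Nr1d2, Pfkfb2, Lpin2, Casc1, Mapk15, Dapk2, Cd86, Tnxb, Magi1, Espn, Inpp5k and Tnrc6b were not called, and they differed from on by -0.28 to 0.72. Most of these were dimmer than the probe in the set. Mapk15, Tnxb and Magi1 also had further probes that were called higher, by 0.96, 0.805 and 0.48, and Inpp5k had such probes at 0.47 and 0.76. These values come from the tumors that chose the genes and are not independent of the rule.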

How the data were processed

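RNA from 12 mouse lung tumors was measured on Illumina BeadChips. Per the file headers, the scanner table holds a mean bead intensity, a bead standard error, a bead number and a detection p-value per probe and array; the authors deposited these intensity values without normalization. The authors also deposited a value table of log2 values with the log taken once more, and none of the sources used here gives its normalization. Its values, taken as powers of 2, restore the first log2 scale with the same median, 4.23, in every array and the same order of probes as the scanner intensities (rank correlation at least 0.999994). The rule was applied to that scale. Its direction and order are thus known, but its background step is not.

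All tests used the scanner intensities, with limma 3.58.1 in R 4.3.3: neqc background correction from the detection p-value, offset 16, quantile normalization, probes detected at p below 0.05 on at least 4 arrays, 1 model with the 3 groups, and Benjamini-Hochberg adjustment over all 21232 probes. Tables and figures were made with Python 3.11.15, pandas 2.3.3 and matplotlib 3.10.9. The fit was tested on simulated data. The number of arrays limits the precision, and the median bead count per probe was 44. A further 24 columns of per-sample values were not used. Probe names came from the platform annotation, in which 34885 probes had 1 gene, 18 several and 10378 none.

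Members and gene lists were chosen with earlier results of these data known, and 2 lists were added after the data were seen. Each list gene was read from its brightest detected probe. Members to be named were the 12 with the largest rise, up to 4 per list, all genes with both of 2 probes in the set, families of at least 3, the 5 brightest, those that differed most between chips and those next to each threshold. The other genes named in the role groups were chosen after their values were seen. A probe not detected on any array of a group has only a lower bound, set by the lowest detected signal per array. Alternatives were the background correction, the scaling, the authors' values, the filter, the chip as a term or block, the replicate number as a block, the 2 compared groups alone and each array left out. Same-numbered tumors did not deviate together (12 correlations from -0.295 to 0.216, with 3 above 0.1), so the numbers were not taken to pair samples. The name of the oncogene is not reported here.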

Additional observations from a re-analysis of the deposited data

Results flagged for a closer look

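Among 183 groups of 4 values of the named probes, 6 held a tumor far from the other 3, by a gap over the whole range above Dixon's critical value at the 95% level. Chance alone flags about 1 in 20 groups. The 48 h replicate 3 was low for Amy2a5, at 7.40 against 8.40 to 8.45 (ratio 0.955), and for Amy1, at 5.35 against 6.20 to 6.30 by the probe ILMN_2626453 (0.890). With that Amy1 probe, on replicate 1 was high, at 4.84 against 4.58 to 4.60 below it (0.920), near the dim end of the scale. Rarb was low in on replicate 4, at 5.34 against 5.70 to 5.75 (0.863). Map1b was high in on replicate 3 by the probe ILMN_2576590, with 6.06 to 6.14 in the others (0.839), and Lgals4 in on replicate 4, at 6.23 against 5.96 to 6.01 (0.830).

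The change from on at 48 h differed from that at 24 h for 160 of the 177 probes by the direct comparison of the times, a difference that the rule had fixed in part.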

How the results depend on the processing

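Of 159 alternative counts, 143 lay within 1.5 times the value reported. When the chip entered the model as a fixed term, probes called between 48 h and 24 h fell from 5664 to 1268 and those of the 177 from 160 to 70, and between 24 h and on they fell from 5023 to 132 and from 11 to 0. In that fit only the 48 h tumors link the chips. Without the filter on dim probes, 7 of the 177 were called at 24 h, and 4 probes in all between the chips at 48 h, in place of 2. A limit of 1 at 48 h left 77 probes in the set and a limit of 0.2 at 24 h left 102.

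With each array left out in turn, 2814 to 4831 probes were called between 48 h and on (4395 with all), 3688 to 5887 between 48 h and 24 h, and 3437 to 5121 between 24 h and on. Of the 177, 159 to 172 were then called higher than on, 142 to 160 higher than 24 h, and 3 to 12 at 24 h. The rule gave 151 to 378 probes, the most without 48 h replicate 3 and the fewest without 48 h replicate 2.

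With the replicate number as a block, which the check of pairing did not support, 3444, 4724 and 4134 probes were called in the 3 comparisons, and 166, 155 and 9 of the 177. Named probes kept their direction in all 1396 alternatives, with 51 losses of a call, at 7 probes, among them both of Cd86 and that of Hspa1b. Scaling to the 75th percentile moved the median of all probes by less than 0.1. Low signal limits the size of change at the 15 probes not detected in any on tumor.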
